A study of Homo sapiens with 8 samples.

Results

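The Wnt pathway genes described here are 49 ligand, secretion, receptor, antagonist, signal transduction and transcription factor genes, taken by name from the 26760 genes of the count table. All 49 were in the table, and 44 of them had enough counts to be tested, among 12303 tested genes. RNA of LK2, a cell line from a human lung squamous cell carcinoma, was sequenced in 4 groups of 2 libraries, 8 in all. The DNp63 group carried the lentiviral vectors pLEX_306-DNp63 (replicate 1) and pLEX_307-DNp63 (replicate 2), which express DNp63 all the time; DNp63 is the p63 transcription factor form without the N-terminal activation domain. The GFP group, its control, carried pLEX_306-GFP (replicate 1) and pLEX_307-GFP (replicate 2). The induced group carried pLIX_403-DNp63, a doxycycline-controlled DNp63 vector, and was given 2 µg per ml doxycycline for 6 days, and the uninduced group carried the same vector and was not given the drug. No cells without a DNp63 vector were given doxycycline, so effects of the drug and of DNp63 cannot be told apart in the inducible system. All 4 groups are 1 cell line, and separate cultures within a group are not stated in the labels, so p-values measure the spread between these libraries, which may be technical.

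Wnt proteins are secreted, lipid-modified ligands that bind Frizzled receptors on the cell surface. With the co-receptors LRP5 and LRP6, a bound Frizzled stops the destruction complex built on AXIN and APC, so that beta-catenin, encoded by CTNNB1, gathers and drives transcription with the TCF and LEF factors. Some ligands, among them WNT5A and WNT11, signal mostly without beta-catenin, through receptors such as ROR1, ROR2 and RYK. Several genes that the pathway switches on encode its own inhibitors, such as AXIN2, NKD1, RNF43, ZNRF3, NOTUM and APCDD1. In squamous epithelia p63 maintains the basal cell state, and Wnt signalling is known there for its part in stem cell maintenance and appendage formation.

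The libraries held 2758158 to 10372248 counts, so 3 counts in a library correspond to 0.291 to 1.11 CPM (counts per 1000000 counts of the scaled library). The 2 libraries of a group differed more from each other in the constitutive system, with a chi-square per gene of 25.3 for DNp63 and 17.4 for GFP, than in the inducible system, with 5.35 for induced and 3.88 for uninduced. TP63, the gene that encodes p63, stood at 1849 and 3808 CPM in the DNp63 libraries, against 0.738 and 1.90 CPM in the GFP libraries. In the inducible system it stood at 412 and 421 CPM in the induced libraries, against 12.7 and 14.7 CPM in the uninduced libraries. Of 9 squamous markers 8 had counts in every group and KRT14 was at 0 in all 8 libraries. The summed squamous marker level, in which TP63 itself counts, was 2965 to 4508 CPM in DNp63, 305 to 542 CPM in GFP, 757 to 808 CPM in induced and 568 to 605 CPM in uninduced libraries. Without TP63 it was 699.8 to 1116 CPM in DNp63 and 304 to 539.8 CPM in GFP libraries, and lower in induced, at 336 to 396 CPM, than in uninduced libraries, at 553 to 592 CPM. SOX2, also in the list, stood at 68.2 and 96.2 CPM in DNp63 libraries, against 277 and 516 CPM in GFP libraries, and at 336 and 277 CPM in induced libraries, against 574 and 536 CPM in uninduced libraries. SOX2 made up most of the sum without TP63 in the inducible system. It was the only listed marker with a lower mean in induced than in uninduced cells. The other markers with counts had higher means, some near the floor, with KRT6A at 25.0 against 4.58 CPM and TRIM29 at 22.2 against 4.71 CPM. The 5 epithelial markers were present in every group and summed to 3279 to 5666 CPM over the 8 libraries. Other cell types left little signal: CD3E, PECAM1, CDH5, COL3A1 and DCN had no count, and the summed levels were at most 30.4 CPM for 6 fibroblast and 2.32 CPM for 4 endothelial markers.

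The sequence before the start of a gene is shown for 5 members: FZD1, FZD8, WNT5A and APCDD1, which were called when both systems were averaged, and DKK1, whose window held more matches than that of any other member. Each window runs from 250 bases before to 50 bases after the gene's start, from RefSeq on GRCh38.p14, and the lines read 5′ to 3′ along the gene's strand. The windows lie at chr7:91264183-91264482 on the plus strand, chr10:35642247-35642546 on the minus strand, chr3:55487257-55487556 on the minus strand, chr18:10454385-10454684 on the plus strand and chr10:52314031-52314330 on the plus strand. Capitals mark the core word of TCF and LEF binding, CTTTGA or CTTTGT on either strand.
FZD1: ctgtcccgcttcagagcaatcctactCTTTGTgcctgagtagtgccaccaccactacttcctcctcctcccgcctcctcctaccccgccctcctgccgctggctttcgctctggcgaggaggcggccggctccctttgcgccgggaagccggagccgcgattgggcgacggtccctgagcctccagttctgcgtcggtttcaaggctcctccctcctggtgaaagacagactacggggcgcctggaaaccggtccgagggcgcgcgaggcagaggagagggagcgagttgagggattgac
FZD8: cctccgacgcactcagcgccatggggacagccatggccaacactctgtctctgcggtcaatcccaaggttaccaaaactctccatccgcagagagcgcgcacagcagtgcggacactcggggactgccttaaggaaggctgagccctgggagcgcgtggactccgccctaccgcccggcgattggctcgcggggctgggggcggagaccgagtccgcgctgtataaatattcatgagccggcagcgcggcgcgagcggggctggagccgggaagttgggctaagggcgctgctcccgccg
WNT5A: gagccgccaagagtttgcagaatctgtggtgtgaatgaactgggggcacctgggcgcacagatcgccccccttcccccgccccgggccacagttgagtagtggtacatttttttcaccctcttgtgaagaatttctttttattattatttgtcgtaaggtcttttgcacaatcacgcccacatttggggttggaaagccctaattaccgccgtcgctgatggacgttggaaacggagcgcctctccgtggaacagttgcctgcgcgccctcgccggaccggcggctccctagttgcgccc
APCDD1: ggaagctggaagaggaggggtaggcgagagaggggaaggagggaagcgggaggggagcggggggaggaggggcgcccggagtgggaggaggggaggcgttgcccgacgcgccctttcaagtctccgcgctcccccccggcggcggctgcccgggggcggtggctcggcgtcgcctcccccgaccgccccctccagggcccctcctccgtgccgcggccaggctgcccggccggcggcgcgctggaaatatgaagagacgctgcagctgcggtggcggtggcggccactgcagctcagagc
DKK1: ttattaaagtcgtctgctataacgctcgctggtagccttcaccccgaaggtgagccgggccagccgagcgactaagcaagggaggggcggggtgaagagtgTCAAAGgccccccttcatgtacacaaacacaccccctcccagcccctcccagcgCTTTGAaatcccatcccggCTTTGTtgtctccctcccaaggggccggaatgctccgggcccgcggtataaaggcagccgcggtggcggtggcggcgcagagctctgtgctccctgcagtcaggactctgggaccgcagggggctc
FZD1 held 1 such word and DKK1 held 3, while FZD8, WNT5A and APCDD1 held none. A window was at hand for 33 of the 49 members, and 5 of them (15.15%) held a TCF and LEF core word, against 26.17% of 35116 windows in all. Each member had 1 window, while the set of all windows was not cut to 1 for each gene. The share of G and C in the members' windows ran from 47% (LEF1) to 86.67% (LRP5), and the windows were not matched for it. The core word of p53 family binding was searched as ACATGT, also as GCATGC, and further as ACATGC with its reverse complement GCATGT, so that both strands are covered. Such a word was in 2 of the 33 windows (6.061%), those of DVL1 and APC, against 18.35% of all windows. A match describes letters in a window and is not a bound site.

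A gene was called when its adjusted p in edgeR's quasi-likelihood test, adjusted over the 12303 tested genes after Benjamini and Hochberg, was below 0.05. Unless another tool or fit is named, calls are those of the edgeR fit over all 8 libraries. Counts of genes at an unadjusted p below 0.05 are given below without the share of all tested genes at that threshold. They cannot be read as more or fewer than among all genes. In DNp63 against GFP cells 12 of the 44 tested members were called, 6 higher and 6 lower, while 8.15% of all tested genes were called, 4.17% higher and 3.98% lower. In induced against uninduced cells 2 members were called, DKK3 higher and FZD1 lower, against 0.284% of all genes, 0.236% higher and 0.0488% lower. When both effects were averaged, 4 members were higher and 4 lower, against 5.67% of all genes, 3.26% higher and 2.41% lower. The median log2 fold change of the 44 members was near that of all tested genes in each comparison: 0.02 against 0.01 in the constitutive system, 0.14 against -0.00 in the inducible system and 0.11 against -0.01 in the average. Among the members called in the constitutive system, 4 of 5 Frizzled genes were lower and 3 of 4 extracellular antagonists were higher. Over all tested members of these roles the directions were mixed. Of 10 Frizzled genes 3 had a positive and 7 a negative log2 fold change in the constitutive system, and 6 and 4 in the inducible system. Of 6 extracellular antagonists 3 were positive and 3 negative in the constitutive system, and 2 and 4 in the inducible system.

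The libraries of the 2 groups did not overlap for 27 members in the constitutive system, where this held for 44.4% of all tested genes, and for 30 members in the inducible system, where it held for 46.9%. For 16 members (36.4%) the groups were apart in the same direction in both systems, 8 higher and 8 lower, against 15% of all tested genes, 7.86% higher and 7.12% lower. The 8 higher ones were WNT5A, FZD5, DKK3, APCDD1, DVL1, AXIN2, CTNNB1 and LEF1. The 8 lower ones were WLS, FZD1, FZD3, FZD8, ROR1, SFRP1, KREMEN1 and DVL2. Another 5 members were apart in opposite directions: PORCN, FZD2, FZD10 and NKD1 were lower in DNp63 than in GFP libraries and higher in induced than in uninduced libraries, and DKK1 was the other way round, against 6.82% of all tested genes.

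**Figure D1:**
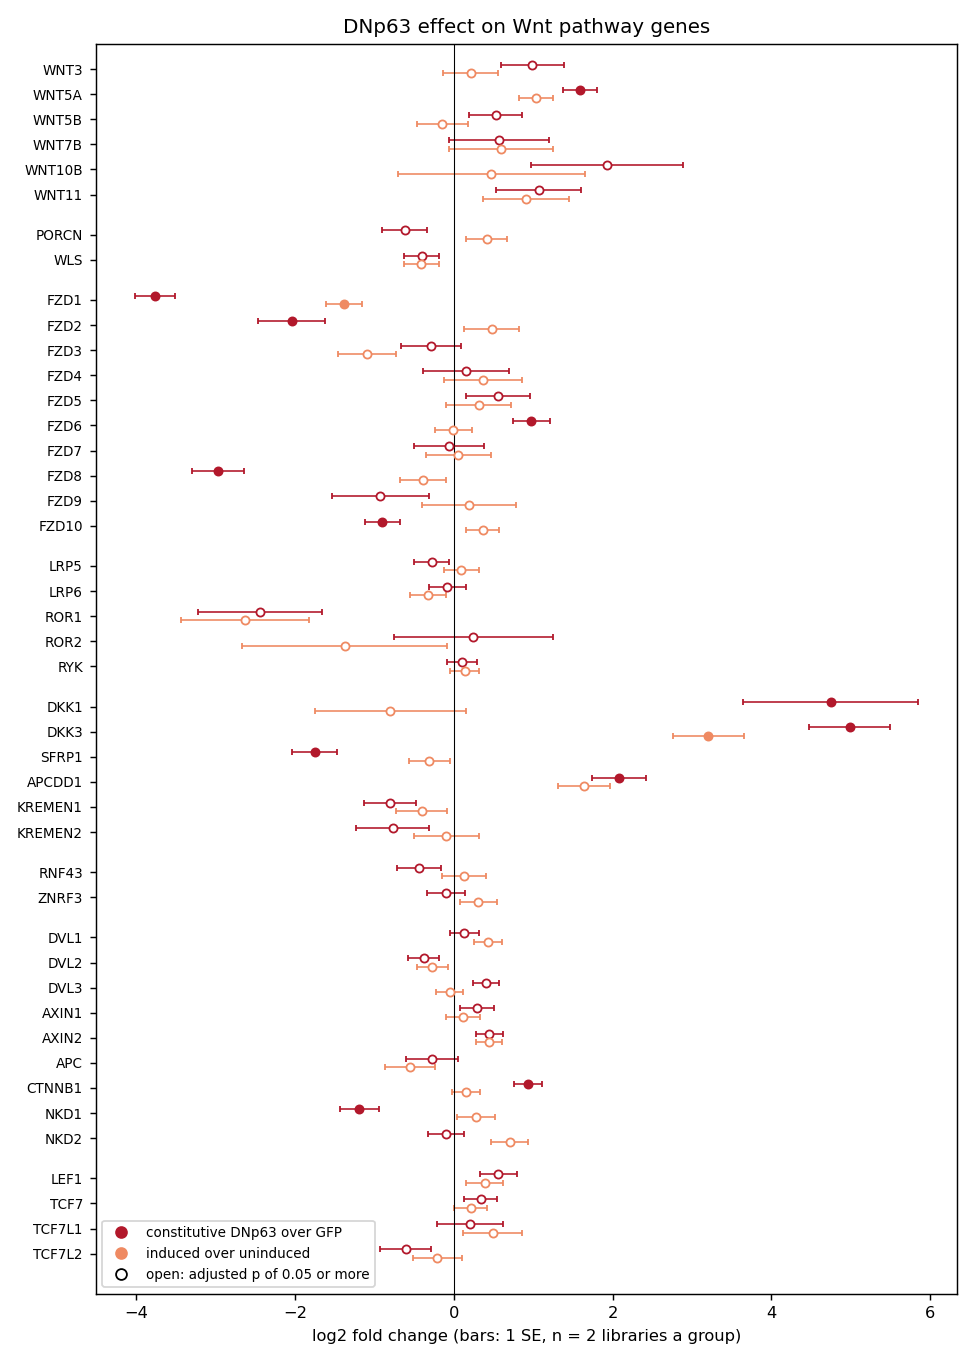
Log2 fold change (x axis) of each of the 44 tested Wnt pathway genes, grouped by role, for constitutive DNp63 over GFP (red) and induced over uninduced (orange). Points are fitted values with bars of 1 SE (n = 2 libraries a group), and filled points have an adjusted p below 0.05. FZD1 (-3.76 and -1.38) and DKK3 (4.99 and 3.20) are filled in both systems.

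Among the ligands, WNT5A rose in DNp63 cells. On CPM per kilobase of exons it had the highest level of the ligands in DNp63 (100.1), induced (36.0) and uninduced cells (17.5), and in GFP cells (33.1) it was next to WNT11 (34.96). It stood at 583 and 687 CPM in DNp63 libraries, against 180.0 and 240.5 CPM in GFP libraries. In the inducible system it stood at 255 and 203 CPM in induced libraries, against 108 and 115 CPM in uninduced libraries. The groups did not overlap in either system, and the level in uninduced cells was below that in GFP cells. The log2 fold change was 1.59 ± 0.21 (SE) in the constitutive system (adjusted p = 0.0014) and 1.04 ± 0.21 in the inducible system (0.117, not called), with an average of 1.32 ± 0.15 (edgeR adjusted p = 0.00057). Within the vectors, DNp63 over GFP was 1.69 on the log2 scale for pLEX_306 and 1.51 for pLEX_307.

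WNT11, another ligand that signals mostly without beta-catenin, differed widely between the DNp63 libraries. It stood at 239.8 and 45.5 CPM in DNp63 libraries, against 70.1 and 64.9 CPM in GFP libraries, so replicate 1 lay above and replicate 2 below both GFP libraries. It stood at 50.05 and 48.3 CPM in induced libraries, against 26.5 and 25.7 CPM in uninduced libraries, with no overlap. Its log2 fold change was 1.07 ± 0.54 in the constitutive and 0.91 ± 0.54 in the inducible system (SE, edgeR adjusted p = 0.265 and 0.945). WNT3 and WNT10B, ligands of the beta-catenin branch, were at low levels. WNT3 had 7.42 and 6.78 CPM in DNp63 libraries, against 4.06 and 3.17 CPM in GFP libraries, and 6.78 and 8.44 CPM in induced libraries, against 6.23 and 6.79 CPM in uninduced libraries. WNT5B, with the lowest averaged log2 fold change of the tested ligands (0.19, adjusted p = 0.726), ran from 12.4 to 30.6 CPM over the 8 libraries.

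The 5 members without enough counts to be tested were all ligands. WNT4 had 22 counts and WNT6 had 29 counts in DNp63 replicate 1, and neither had a count in DNp63 replicate 2 or in the GFP libraries. Taking 3 counts as the upper limit for the whole GFP group, WNT4 was at least 6.30-fold higher and WNT6 at least 8.30-fold higher in the DNp63 group, and both bounds rest on that 1 library. WNT9A had 13 and 8 counts in DNp63 libraries, against 3 and 2 counts in GFP libraries, and 6 and 0 counts in induced libraries, against 1 and 9 counts in uninduced libraries. WNT10A had 1 count in the DNp63 group, 2 in the induced group and none elsewhere. WNT7A had no count in any library, which allows up to 0.291 CPM in the deepest library and 1.11 CPM in the shallowest.

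Neither gene of Wnt secretion was called by DESeq2 or by edgeR fitted over all 8 libraries, and at an unadjusted p below 0.05 edgeR counted 1 of the 2 in the constitutive comparison, 1 in the average and 1 in the difference between systems. WLS, the carrier that takes Wnt proteins to the cell surface, stood at 49.7 and 73.8 CPM in DNp63 libraries, against 88.1 and 76.3 CPM in GFP libraries, and its log2 fold change was -0.41 ± 0.22 in the constitutive and -0.41 ± 0.22 in the inducible system (SE, edgeR adjusted p = 0.321 and 0.922). PORCN, the enzyme that attaches the lipid to Wnt proteins, had a log2 fold change of -0.62 ± 0.28 in the constitutive and 0.41 ± 0.25 in the inducible system (edgeR adjusted p = 0.217 and 0.945).

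All 10 Frizzled genes were tested, and in DNp63 against GFP cells FZD1, FZD8, FZD2 and FZD10 fell and FZD6 rose, while FZD3, FZD4, FZD5, FZD7 and FZD9 were not called. FZD1 had the highest level per kilobase of exons of the Frizzled genes in both control groups and was the only one called lower in each system. It stood at 38.5 and 58.8 CPM in DNp63 libraries, against 563 and 764 CPM in GFP libraries, and at 197 and 184 CPM in induced libraries, against 513 and 480.3 CPM in uninduced libraries. The fitted log2 difference was -3.76 ± 0.26 in the constitutive system (edgeR adjusted p = 2.72e-05), where DNp63 cells held 0.0738 times the GFP level, and -1.38 ± 0.23 in the inducible system (edgeR adjusted p = 0.0409), where induced cells held 0.384 times the uninduced level. The inducible call was lost when any of the 4 inducible libraries was left out, with log2 fold changes of -1.43 to -1.33. Those fits called fewer genes of the whole table too.

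FZD8 stood at 10.6 and 22.6 CPM in DNp63 libraries, against 157 and 109.5 CPM in GFP libraries. In the inducible system it stood at 88.3 and 89.7 CPM in induced libraries, against 108.5 and 124 CPM in uninduced libraries. The induced libraries lay below the uninduced ones and far above the DNp63 libraries. On the log2 scale the change was -2.97 ± 0.32 in the constitutive system (edgeR adjusted p = 0.000433) and -0.39 ± 0.29 in the inducible system (0.964). Within the vectors, the difference of DNp63 from GFP was -3.85 on the log2 scale for pLEX_306 and -2.26 for pLEX_307.

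By edgeR's test of the difference between the systems, FZD1 and FZD8 were the 2 members called, where 0.545% of all genes were called. DESeq2 called 5 members for this difference, FZD2, FZD10 and NKD1 besides these. The induced effect minus the constitutive effect was 2.38 ± 0.33 on the log2 scale for FZD1 (edgeR adjusted p = 0.0205) and 2.58 ± 0.43 for FZD8 (edgeR adjusted p = 0.031), the difference from the control being smaller in induced cells for both. TP63 was also lower in induced than in DNp63 cells, and its part in this difference was not tested. Both edgeR calls were lost when any of the 4 inducible libraries was left out, with edgeR adjusted p of 0.133 to 0.199 for FZD1 and 0.168 to 0.248 for FZD8.

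FZD2 and FZD10 fell in DNp63 cells and pointed the other way in induced cells. FZD2 stood at 1.71 and 4.07 CPM in DNp63 libraries, against 12.5 and 12.5 CPM in GFP libraries, and at 19.1 and 13.2 CPM in induced libraries, against 13.1 and 10.38 CPM in uninduced libraries. Its log2 fold change was -2.04 ± 0.42 in the constitutive system (edgeR adjusted p = 0.0152) and 0.48 ± 0.35 in the inducible system (0.96), and the difference between them, 2.52 ± 0.55, had an edgeR adjusted p of 0.0848. FZD10 stood at 35.4 and 49.4 CPM in DNp63 libraries, against 85.9 and 73.1 CPM in GFP libraries, and at 92.7 and 85.6 CPM in induced libraries, against 72.7 and 66.1 CPM in uninduced libraries. Its log2 fold change was -0.90 ± 0.22 (edgeR adjusted p = 0.0319) in the constitutive and 0.36 ± 0.21 (0.929) in the inducible system. FZD10-AS1, the antisense partner of FZD10, had log2 fold changes of -0.98 ± 0.38 and 0.55 ± 0.35 in the same comparisons (edgeR adjusted p = 0.151 and 0.95). How the authors counted with regard to strand is not known from the labels or notes, so reads of FZD10 and FZD10-AS1 cannot be told apart with certainty.

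FZD6, a Frizzled known for its part in planar cell polarity, was the only Frizzled gene called higher with DNp63 in the constitutive, inducible or averaged comparison. It stood at 76.5 and 108 CPM in DNp63 libraries, against 40.9 and 52.6 CPM in GFP libraries, and at 36.2 and 39.1 CPM in induced libraries, against 39.2 and 36.4 CPM in uninduced libraries. The log2 fold change was 0.98 ± 0.23 in the constitutive system (edgeR adjusted p = 0.0281) and -0.00 ± 0.23 in the inducible system (0.999). The calls of FZD6 and FZD10 were the least stable of the constitutive ones, since FZD6 was not called when any library except DNp63 replicate 1 was left out (edgeR adjusted p = 0.0587 to 0.0888), nor FZD10 when any library except DNp63 replicate 2 was left out (0.062 to 0.0815). On CPM per kilobase of exons, with lengths from the GENCODE annotation of another build, the order in GFP cells ran from FZD1 (95.2) through FZD8 (33.0), FZD10 (24.2) and FZD6 (11.9) to FZD2 (5.92), with the other 5 between 0.522 and 2.35. In DNp63 cells the order of these levels was FZD6 (23.6), FZD10 (12.9), FZD1 (6.99) and FZD8 (4.12), with the other 6 between 0.578 and 2.15, so FZD6 took the first place that FZD1 held in GFP and uninduced cells (71.4). In induced cells FZD1 (27.4) and FZD10 (27.2) were level.

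**Figure D2:**
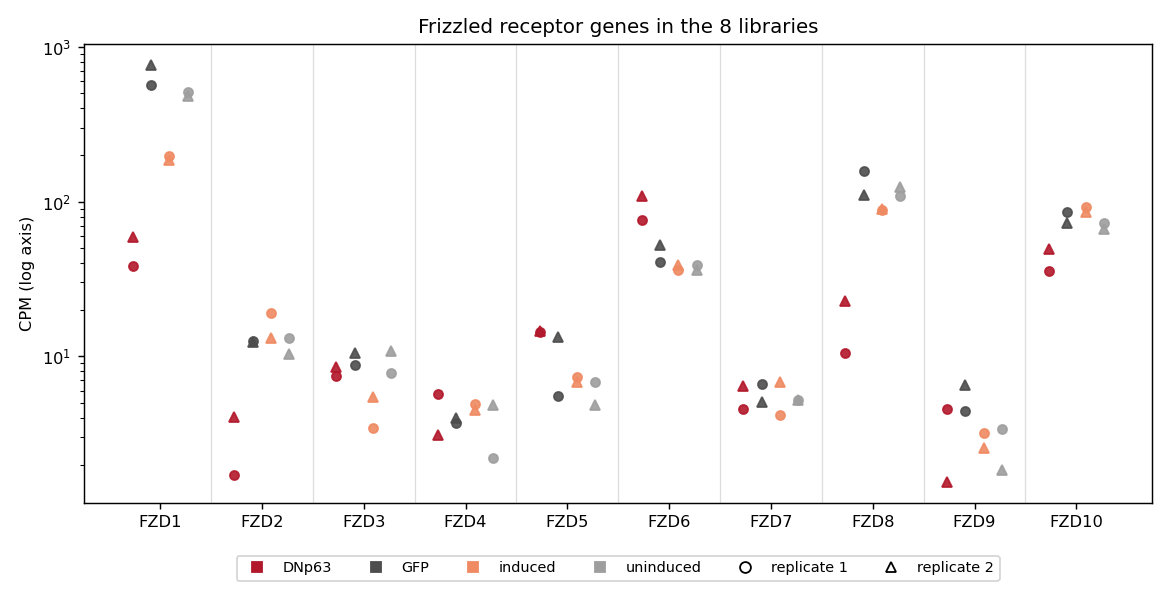
CPM (log axis) of the 10 Frizzled genes in each of the 8 libraries, with the groups DNp63, GFP, induced and uninduced side by side; circles are replicate 1 and triangles replicate 2. FZD1 lies at 38.5 and 58.8 CPM in DNp63 libraries, 563 and 764 CPM in GFP libraries, 197 and 184 CPM in induced libraries and 513 and 480.3 CPM in uninduced libraries.

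The co-receptors of the beta-catenin branch held similar levels in all groups. LRP5 ran from 178 to 289 CPM and LRP6 from 27.1 to 44.1 CPM over the 8 libraries, and the averaged log2 fold changes were -0.09 and -0.20 (edgeR adjusted p = 0.821 and 0.563). The 95% intervals of these values ran from -0.44 to 0.25 for LRP5 and from -0.56 to 0.16 for LRP6. ROR1, a receptor tyrosine kinase that binds WNT5A, was lower with DNp63 in both systems at very low counts. It had 2 and 2 counts in DNp63 libraries, against 6 and 14 counts in GFP libraries, and 2 and 1 counts in induced libraries, against 8 and 15 counts in uninduced libraries. Its averaged log2 fold change was -2.54 ± 0.56 (edgeR adjusted p = 0.0253), with neither system called alone (0.0827 and 0.381), and DESeq2 gave 0.051 for the average. The averaged call was also lost without DNp63 replicate 2, GFP replicate 2 or any of the 4 inducible libraries, with edgeR adjusted p of 0.0578 to 0.112. The ratio of summed, scaled counts of the induced to the uninduced group was 0.151, with a 95% exact interval of 0.0290 to 0.4997 that covers counting error only. ROR2 stood at 7.14 and 0.774 CPM in DNp63 libraries, against 5.53 and 1.27 CPM in GFP libraries, which overlap. RYK, with the highest averaged log2 fold change among the co-receptors (0.12, edgeR adjusted p = 0.699), ran from 128 to 167 CPM.

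Secreted and surface antagonists moved in both directions. DKK3, a divergent member of the Dickkopf family whose part in Wnt signalling is less settled than that of DKK1, rose in both systems from a level near the detection limit. It stood at 48.3 and 77.8 CPM in DNp63 libraries, against 3.69 and 0.845 CPM in GFP libraries. It stood at 26.3 and 19.8 CPM in induced libraries, against 2.01 and 2.81 CPM in uninduced libraries. Every DNp63-expressing library was above every control library. The fitted log2 difference was 4.99 ± 0.51 in the constitutive system (31.7-fold, edgeR adjusted p = 0.000323) and 3.20 ± 0.45 in the inducible system (9.22-fold, edgeR adjusted p = 0.0166). The inducible call was lost when any of the 4 inducible libraries was left out, with log2 fold changes of 2.98 to 3.51. As for FZD1, those fits called fewer genes of the whole table too.

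APCDD1, a membrane glycoprotein that inhibits Wnt signalling and is itself a target of the pathway, had the highest level of all members per kilobase of exons in each of the 4 groups. It stood at 3481 and 6461 CPM in DNp63 libraries, against 1569.8 and 789 CPM in GFP libraries, and at 4392 and 4535 CPM in induced libraries, against 1461 and 1402 CPM in uninduced libraries. The groups did not overlap in either system. On the log2 scale the change was 2.08 ± 0.34 in the constitutive system (edgeR adjusted p = 0.00445) and 1.64 ± 0.33 in the inducible system (0.118), with an average of 1.86 ± 0.24 (edgeR adjusted p = 0.00118). Within the vectors, DNp63 over GFP was 1.15 on the log2 scale for pLEX_306 and 3.03 for pLEX_307. APCDD1 and NKD1 together took 42.6 to 60.8% of the counts of all 49 members, which themselves took 0.888 to 1.48% of the counts of a library.

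SFRP1, a secreted protein that binds Wnt ligands, fell in DNp63 cells. It stood at 14.6 and 16.1 CPM in DNp63 libraries, against 38.0 and 64.7 CPM in GFP libraries, and at 30.2 and 27.9 CPM in induced libraries, against 35.1 and 36.8 CPM in uninduced libraries. The log2 fold change was -1.75 ± 0.28 in the constitutive system (edgeR adjusted p = 0.00399), -0.31 ± 0.26 in the inducible system (0.979) and -1.03 ± 0.19 in the average (edgeR adjusted p = 0.0104). The averaged call was lost without induced replicate 1 (edgeR adjusted p = 0.0733), induced replicate 2 (0.0684) or uninduced replicate 2 (0.0645).

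DKK1, which blocks LRP5 and LRP6, rested on 1 library. It stood at 165 and 8.52 CPM in DNp63 libraries, against 4.43 and 2.32 CPM in GFP libraries, and at 5.79 and 7.66 CPM in induced libraries, against 10.8 and 12.2 CPM in uninduced libraries. DNp63 replicate 1 was far above the other 7 libraries, and in the inducible system the order of the groups was the opposite. The fitted log2 difference was 4.75 ± 1.10 in the constitutive system (edgeR adjusted p = 0.0254) and -0.80 ± 0.95 in the inducible system (0.995). Without DNp63 replicate 1 the constitutive value was 1.41 (edgeR adjusted p = 0.104), and the call was also lost without GFP replicate 1 (0.0804), GFP replicate 2 (0.199), induced replicate 1 (0.0629) or induced replicate 2 (0.0627). The DNp63 replicates also differed in KRT5, a basal keratin, at 397 CPM in replicate 1 and 18.8 CPM in replicate 2.

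KREMEN1 and KREMEN2, receptors for Dickkopf proteins, were not called by DESeq2 or by the main edgeR fit over all 8 libraries. Without the filter on low counts, or with a replicate block, edgeR called KREMEN1 in the constitutive comparison and in the average. KREMEN1 stood at 274 and 679.9 CPM in DNp63 libraries, against 841 and 826 CPM in GFP libraries, and at 602 and 638 CPM in induced libraries, against 839 and 799 CPM in uninduced libraries. Its groups did not overlap in either system, and its averaged log2 fold change was -0.60 ± 0.23 (edgeR adjusted p = 0.173).

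**Figure D3:**
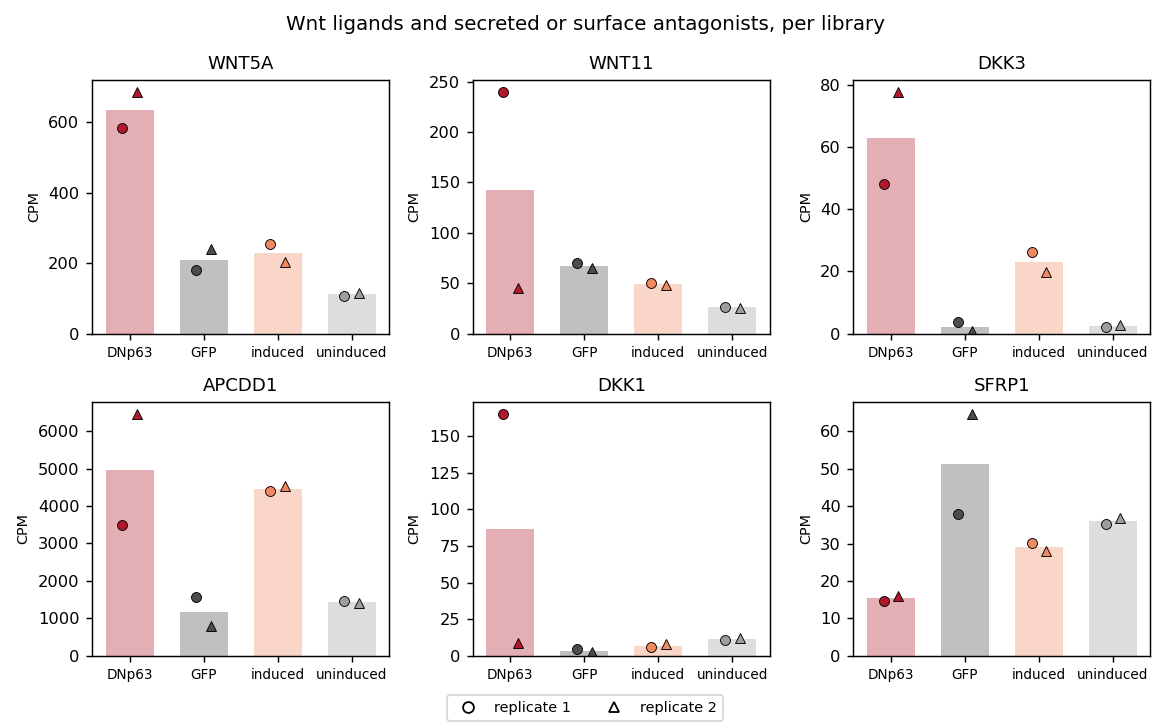
CPM per library (points; circles replicate 1, triangles replicate 2) and group mean (bars, n = 2) of the ligands WNT5A and WNT11 and the antagonists DKK3, APCDD1, DKK1 and SFRP1 in DNp63, GFP, induced and uninduced cells. The DKK1 and WNT11 bars of DNp63 cells rest on replicate 1, at 165 and 239.8 CPM.

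RNF43 and ZNRF3, ubiquitin ligases that remove Frizzled receptors from the cell surface, were not called in any of the 5 comparisons by edgeR or DESeq2, and neither had an unadjusted edgeR p below 0.05. RNF43 stood at 263 and 483 CPM in DNp63 libraries, against 410.4 and 601 CPM in GFP libraries, with overlap. Its averaged log2 fold change was -0.16 ± 0.20 and that of ZNRF3 was 0.10 ± 0.17 (SE, edgeR adjusted p = 0.742 and 0.809).

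Among the 9 cytoplasmic members, CTNNB1 rose and NKD1 fell in DNp63 cells. CTNNB1, which encodes beta-catenin, stood at 501 and 436 CPM in DNp63 libraries, against 258 and 233 CPM in GFP libraries, and at 268 and 286 CPM in induced libraries, against 245 and 253 CPM in uninduced libraries. On the log2 scale the change was 0.93 ± 0.18 in the constitutive system (edgeR adjusted p = 0.00957), 0.15 ± 0.17 in the inducible system (0.994) and 0.54 ± 0.12 in the average (edgeR adjusted p = 0.0284). The averaged call was lost without GFP replicate 2 (edgeR adjusted p = 0.0612) or any of the 4 inducible libraries (0.128 to 0.171).

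NKD1, an inhibitor that binds Dishevelled, stood at 991 and 1695 CPM in DNp63 libraries, against 2639 and 3482 CPM in GFP libraries. In the inducible system it stood at 3416 and 3260.2 CPM in induced libraries, against 2771 and 2735 CPM in uninduced libraries. Both orders were without overlap and they were opposite. The log2 fold change was -1.19 ± 0.25 in the constitutive system (edgeR adjusted p = 0.0152) and 0.28 ± 0.24 in the inducible system (0.98), and the difference, 1.47 ± 0.35, had an edgeR adjusted p of 0.109. Without GFP replicate 2 the constitutive value was -0.98 (edgeR adjusted p = 0.0898), and the call of FZD2 was lost in the same fit (0.0712). NKD2, its paralog, stood at 472 and 463 CPM in DNp63 libraries, against 625 and 378 CPM in GFP libraries, and at 533 and 465.5 CPM in induced libraries, against 321 and 292 CPM in uninduced libraries.

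AXIN2, a scaffold of the destruction complex and a widely used readout of beta-catenin activity, had nearly the same difference in each system. It was not called by the main edgeR fit over all 8 libraries, which used legacy estimates. With edgeR's default estimates, and with DESeq2, it was called in the average. It stood at 314 and 335 CPM in DNp63 libraries, against 232 and 243.5 CPM in GFP libraries, and at 320.5 and 311 CPM in induced libraries, against 234 and 231 CPM in uninduced libraries. All 4 DNp63-expressing libraries were above all 4 control libraries. The fitted log2 difference was 0.45 ± 0.17 in the constitutive and 0.44 ± 0.17 in the inducible system (edgeR adjusted p = 0.132 and 0.614), and the average was 0.44 ± 0.12 (edgeR adjusted p = 0.0526). AXIN1, APC and the Dishevelled genes DVL1, DVL2 and DVL3, which carry the signal from the receptors to the destruction complex, had averaged log2 fold changes of -0.41 (APC) to 0.28 (DVL1), none of them called.

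No TCF or LEF member was called in any of the 5 comparisons by DESeq2 or by the main edgeR fit over all 8 libraries. Without the filter on low counts edgeR called LEF1 in the average. In the main fit 1 of the 4 members had an unadjusted edgeR p below 0.05 in the constitutive comparison and 1 in the average. LEF1 stood at 449 and 757 CPM in DNp63 libraries, against 431 and 387 CPM in GFP libraries, and at 488 and 468 CPM in induced libraries, against 369 and 360.0 CPM in uninduced libraries. Its groups did not overlap in either system, and its averaged log2 fold change was 0.48 ± 0.16 (edgeR adjusted p = 0.134). TCF7L2 had the lowest averaged value of the 4, -0.40 ± 0.22 (edgeR adjusted p = 0.368), and TCF7 and TCF7L1 had 0.28 and 0.35.

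**Figure D4:**
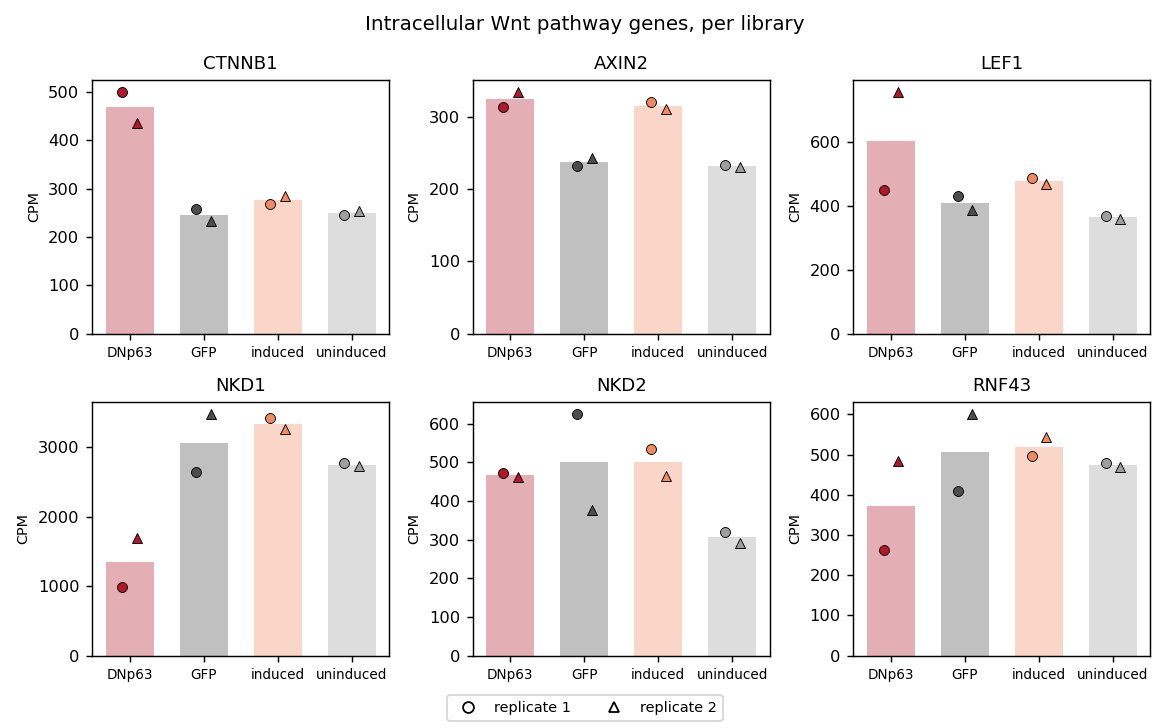
CPM per library (points; circles replicate 1, triangles replicate 2) and group mean (bars, n = 2) of CTNNB1, AXIN2, LEF1, NKD1, NKD2 and RNF43 in DNp63, GFP, induced and uninduced cells. AXIN2 lies at 311 to 335 CPM in the 4 DNp63-expressing libraries and at 231 to 243.5 CPM in the 4 control libraries, while NKD1 is lower in DNp63 than in GFP cells and not lower in induced than in uninduced cells.

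The call count depended on which libraries set the spread. With each system fitted on its own 4 libraries, 6 members were called in the constitutive system, WNT5A, DKK3 and APCDD1 higher and FZD1, FZD8 and SFRP1 lower, where 2.29% of all genes were called, 1.59% higher and 0.699% lower. In the inducible system 14 members were called in that fit, 9 higher and 5 lower, where 6.53% of all genes were called, 3.65% higher and 2.88% lower. The 9 higher ones were WNT5A, WNT11, DKK3, APCDD1, DVL1, AXIN2, NKD1, NKD2 and LEF1, with edgeR adjusted p of 2.38e-18 for APCDD1, 1.53e-08 for WNT5A, 0.00268 for AXIN2 and 0.0258 for NKD1. The 5 lower ones were WLS, FZD1, FZD3, FZD8 and KREMEN1. FZD3 had the widest of these after FZD1, at -1.12 ± 0.35 (SE, edgeR adjusted p = 0.0441), with 3.45 and 5.497 CPM in induced libraries, against 7.83 and 10.8 CPM in uninduced libraries.

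Between the control groups, uninduced against GFP, no member was called by edgeR, while 5 had an unadjusted p below 0.05 and DESeq2 called 1, WNT5A. All genes together gave 1 call (0.00813%). WNT5A was lower in uninduced than in GFP cells by a log2 fold change of -0.92 ± 0.21 (edgeR adjusted p = 0.254), and WNT11 by -1.37 ± 0.55 (edgeR adjusted p = 0.49). For WNT5A this is close in size to the induced effect, so its level in induced cells, 255 and 203 CPM, was near that in GFP cells, 180.0 and 240.5 CPM.

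The 6 further lists of Wnt genes held 144 genes, of which 115 were tested. They were chosen with earlier results of these data known, so their shares of calls are given as a description only. In DNp63 against GFP cells 14 of them were called higher and 3 lower, where 4.17% and 3.98% of all tested genes were. In the average 13 were higher and 2 lower, where 3.26% and 2.41% of all tested genes were, and in the inducible system none by edgeR, where 15 had an unadjusted p below 0.05 and DESeq2 called 1. Of 14 tested extracellular regulators 5 were called in the average, all higher (35.7%, against 5.67% of all tested genes). LGR6, a receptor for R-spondins, stood at 39.4 and 15.9 CPM in DNp63 libraries, against 2.21 and 3.38 CPM in GFP libraries, and at 12.2 and 9.03 CPM in induced libraries, against 5.62 and 5.63 CPM in uninduced libraries, with an averaged log2 fold change of 2.08 (edgeR adjusted p = 0.00434). NOTUM, a secreted enzyme that removes the lipid from Wnt proteins, stood at 3784 and 3765 CPM in DNp63 libraries, against 2279 and 1927 CPM in GFP libraries, and at 4114 and 3958 CPM in induced libraries, against 3112 and 2659 CPM in uninduced libraries, with an averaged log2 fold change of 0.66 (edgeR adjusted p = 0.00952). The other 3 were CTHRC1 (log2 fold change 1.66), TPBG (0.59) and DKK4. DKK4, an antagonist of the Dickkopf family, had 0 and 260 counts in DNp63 libraries, against 1 and 0 counts in GFP libraries, and 46 and 16 counts in induced libraries, against 1 and 0 counts in uninduced libraries, so in the constitutive system it rests on replicate 2. It had enough counts to be tested only through the groups expressing DNp63. DKK4 could thus only be called higher, and it is 1 of the 5 in the share above.

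Of 22 tested genes reported as beta-catenin targets, EFNB1, ID2, NOTUM, FST and JAG1 were higher and ASCL2 and TCF4 lower in the average (31.8%, against 5.67% of all tested genes). This share, too, is a description only, and NOTUM is counted among the extracellular regulators as well. EFNB1, a ligand of Eph receptors, stood at 161 and 118 CPM in DNp63 libraries, against 19.5 and 21.6 CPM in GFP libraries, and at 26.4 and 21.0 CPM in induced libraries, against 15.7 and 16.1 CPM in uninduced libraries. Its effect was the only one of the 115 called for a difference between the systems, at -2.17 ± 0.33 for induced minus constitutive (edgeR adjusted p = 0.0271). In the constitutive comparison 7 were higher and 3 lower (45.5%, against 8.15% of all tested genes), the lower ones being ASCL2, TCF4 and MYC. MYC, named here after its values were seen, stood at 490.2 and 347 CPM in DNp63 libraries, against 615 and 956 CPM in GFP libraries. FST, a secreted inhibitor of activin, had 33 counts in the DNp63 group, against 2 in the GFP group, and 24 in the induced group, against 2 in the uninduced group, with ratios of 14.2 (95% exact interval 3.62 to 122) and 13.9 (3.45 to 121) for counting error only. Like DKK4, FST could be tested only through the groups expressing DNp63 and could only be called higher, and it is part of the shares above. Single genes were called higher in the average among the cytoplasmic components (CXXC5, 1 of 23) and the nuclear co-factors (TLE2, 1 of 22), and 2 of 33 among the planar polarity and non-canonical components (CELSR1 and VANGL2), with none lower. These shares, 4.35%, 4.55% and 6.06%, are near the 5.67% of all tested genes. Of the other ligands WNT8B and WNT16 were tested, and neither was called by edgeR or DESeq2 or had an unadjusted p below 0.05 in the average.

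**Figure D5:**
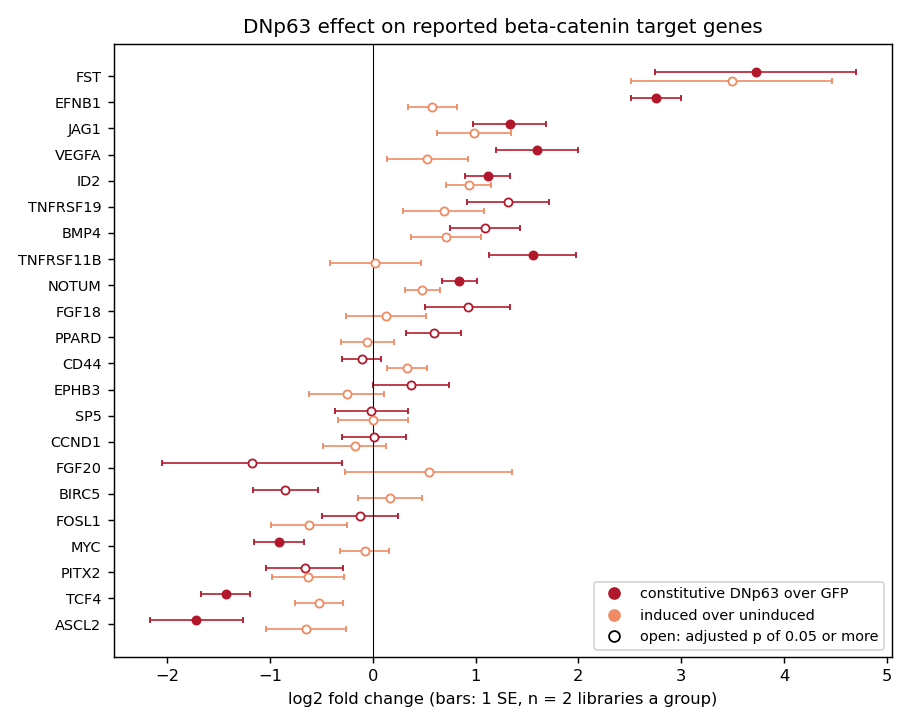
Log2 fold change (x axis) of 22 tested genes reported as beta-catenin targets, for constitutive DNp63 over GFP (red) and induced over uninduced (orange), with bars of 1 SE (n = 2 libraries a group) and filled points for an adjusted p below 0.05. EFNB1 is at 2.75 and 0.58, MYC at -0.91 and -0.08; the FST points depend on 2 counts in each control group.

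By Pearson's correlation of log2 CPM over the 8 libraries, the genes most like WNT5A were WASL (0.985), GDNF-AS1 (0.982) and RGAG4 (0.981), those most like APCDD1 were C9orf9 (0.991), DBH (0.989) and STRIP2 (0.987), and those most like SFRP1 were MAML2 (0.995), TNIK (0.979) and RASD1 (0.978). Each was the highest of 12302 genes ranked, over libraries that share the same groups, and is given as a description only.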

How the data were processed

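Gene counts were measured in 8 libraries, which per the labels' protocols were polyA-selected, directional and read from both ends for 38 bp. The authors deposited unscaled read counts, with a column for each library and a row for each gene. According to the submitters' processing notes, the authors aligned reads with TopHat2 2.1 to hg19 (GRCh37), counted them with HTSeq, used SAMtools and tested with DESeq2; annotation, strand setting and filters were not stated there. Without the strand setting, overlapping and antisense genes cannot be told apart with certainty.

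From these counts, genes were kept by filterByExpr on the 4 groups (minimum count 10), libraries were scaled by TMM (trimmed mean of M-values) and whole-table totals of 2758158 to 10372248 counts, and a mean for each of the 4 groups with a shared spread (4 residual degrees of freedom) was fitted under R 4.3.3 by the two-sided quasi-likelihood test of edgeR 4.0.16 with legacy estimates. Benjamini-Hochberg adjustment ran over all 12303 tested genes, and genes were called at an adjusted p below 0.05. The 5 contrasts were DNp63 minus GFP, induced minus uninduced, their average, their difference (induced minus constitutive) and uninduced minus GFP. CPM used the scaled library sizes, and log2 CPM a prior count of 2. Groups with at most 3 counts were compared by summed counts with 95% exact intervals or a floor of 3 counts over the group, which cover counting error only. The fit was tested on simulated data.

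The members and lists were chosen with earlier results of these data known. Members called in any contrast are given per library; of the other lists, up to 4 genes with the smallest p in the average and all genes called there may be named. AES stood for TLE5 in the table. Alternatives were DESeq2 1.42.0 size factors and its Wald test, no filter, a replicate block, edgeR default estimates, each system alone, and leaving out each library. Exon lengths came from GENCODE on GRCh38, promoter windows from RefSeq on GRCh38.p14; gene coordinates of hg19 were not used here. With 2 libraries a group, an exact permutation test of 1 gene cannot go below p = 0.333.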

Additional observations from a re-analysis of the deposited data

Results flagged for a closer look

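By edgeR's test of the difference between the 2 systems, FZD1 and FZD8 were the Wnt members called, and DESeq2 also called FZD2, FZD10 and NKD1. The induced effect minus the constitutive effect was 2.38 on the log2 scale for FZD1 (edgeR adjusted p = 0.0205), whose log2 fold change was -1.38 in induced against uninduced cells and -3.76 in DNp63 against GFP cells. For FZD8 the difference was 2.58 (edgeR adjusted p = 0.031), from -0.39 in induced against uninduced cells and -2.97 in DNp63 against GFP cells. In both genes all induced and DNp63 libraries lay below their own controls. TP63 stood at 412 and 421 CPM in induced libraries and at 1849 and 3808 CPM in DNp63 libraries, and the part of this gap in the result was not tested.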

How the results depend on the processing

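No call of a member reversed under any alternative run: of the values recomputed for members called as reported, 268 kept their side of the threshold and 58 lost it. Of those 58, 6 came from fitting each system alone, 1 from the DESeq2 Wald test (ROR1) and the rest from leaving out a library. The constitutive count of 12 members was 6 with each system fitted alone and 7 to 14 with a library left out. The induced count of 2 was 5 with no filter, 4 with DESeq2, 4 with a replicate block, 14 with each system fitted alone and 0 to 5 with a library left out. The averaged count of 8 was 13 with no filter and 5 to 14 with a library left out. The count of 2 for the difference between systems was 7 with no filter, 5 with DESeq2, 5 with a replicate block and 0 to 7 with a library left out. The count of 0 for uninduced against GFP was 3 with no filter, 1 with DESeq2 and 0 to 1 with a library left out. With no filter the constitutive count was 16, and with a replicate block it was 13. The averaged count was 11 with a replicate block and 9 with edgeR default estimates. Calls among all genes moved too. In the inducible system they fell when any inducible library was left out, so the lost calls of FZD1 and DKK3 were not particular to them. In the constitutive system and in the average they fell without GFP replicate 2 or any inducible library. They rose when any other library was left out. All-gene counts of the alternative fits for the difference and for uninduced against GFP are not given here. In the inducible system 35 became 242 with no filter, 110 with DESeq2, 87 with the block and 803 with each system alone. In the constitutive system 1003 became 1791, 1221, 1397 and 282 in these fits. In the average 697 became 1372 with no filter and 1041 with the block. Which cause moved these counts was not tested, and leaving out a library of a pair leaves 1 library and fewer degrees of freedom. Samples with the same replicate number deviated together with a correlation of 0.22 in the constitutive and -0.03 in the inducible system. With 2 pairs a system, these values cannot decide whether the libraries are paired. In the constitutive system the number also marks the vector, pLEX_306 or pLEX_307, which DNp63 and GFP libraries of 1 number share. The main fit did not use the numbers as pairs, and the replicate block was run as an alternative. The replicate block added KREMEN1 in the constitutive system, WNT5A and APCDD1 in the inducible one, DKK1, KREMEN1 and NKD1 in the average, and FZD2, DKK1 and NKD1 in the difference, and removed no member call. DESeq2 size factors moved the median log2 fold change of all genes by 0.00 and changed no member call. Depth limits the weakly expressed ligands and ROR1, where 3 counts are 0.291 to 1.11 CPM.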

Other observations

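The list of non-canonical and planar cell polarity components held 2 calls in the average, both higher, among 33 tested genes (6.06%, near the 5.67% of all tested genes). Planar cell polarity is the arrangement of cells within the plane of a tissue, and the list is not limited to its genes. The median log2 fold change of the list was -0.01, and CELSR3 had -0.74 (edgeR adjusted p = 0.0565). CELSR1, an atypical cadherin, stood at 315 and 449.9 CPM in DNp63 libraries, against 170.0 and 104 CPM in GFP libraries, and at 199.6 and 181 CPM in induced libraries, against 151 and 149 CPM in uninduced libraries, with an averaged log2 fold change of 0.91 (edgeR adjusted p = 0.0137). VANGL2, its membrane partner in that system, stood at 21.7 and 27.5 CPM in DNp63 libraries, against 6.64 and 9.30 CPM in GFP libraries, and at 8.51 and 8.25 CPM in induced libraries, against 7.23 and 6.31 CPM in uninduced libraries, with an averaged log2 fold change of 0.96 (edgeR adjusted p = 0.0272). For both, the groups did not overlap in either system. TLE2, a co-repressor that binds TCF factors, stood at 32.5 and 22.1 CPM in DNp63 libraries, against 18.4 and 5.495 CPM in GFP libraries, and at 17.01 and 20.6 CPM in induced libraries, against 6.23 and 6.99 CPM in uninduced libraries, with an averaged log2 fold change of 1.37 (edgeR adjusted p = 0.032).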
